A study of Mus musculus with 60 samples.

Results

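The colon of mice with collagen-induced arthritis (CIA) was compared with the colon of naïve mice at a single time of day, ZT4, which is 4 h after lights on. The comparison holds every library with that time and 1 of those treatments in its label, 5 CIA and 5 naïve, and these are 10 of the 60 libraries of a series that sampled both treatments at 6 times of day. All mice were male DBA/1 mice, with no genetic change named, and were 9 to 10 weeks old at immunisation. CIA mice had been given bovine type II collagen in complete Freund's adjuvant, with a boost on day 21, both at ZT6, and the colon was taken 7 days after symptoms began. Naïve mice were housed with them and received neither collagen nor adjuvant, so that adjuvant, collagen and arthritis cannot be told apart as sources of a difference. Each library came from a 5 mm piece of whole tissue from the middle colon, and in such bulk tissue fewer cells of a type and less RNA per cell cannot be told apart. The labels name the 5 libraries of a group as separate samples, and every p-value below measures the spread between such samples.

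CIA is a mouse model of rheumatoid arthritis in which immunity to cartilage collagen inflames the joints. The colon wall combines a lining of absorptive, goblet and endocrine epithelial cells, a lamina propria rich in macrophages, T cells and IgA-secreting plasma cells, and an outer muscle coat with the enteric nervous system embedded in it. Its cells also carry a circadian clock, in which ARNTL (BMAL1) and CLOCK switch on the Per, Cry and Nr1d genes, whose products in turn repress ARNTL and CLOCK activity or Arntl transcription. At ZT4 Arntl transcripts are on their way down and Nr1d1 transcripts are on their way up, so that clock genes report how far a sample has moved through the day.

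The libraries held 39026384 to 51792336 assigned reads in CIA and 35207769 to 53207922 in naïve mice. All levels below are read counts scaled to library size by TMM and given as CPM, and fold changes are CIA over naïve on the log2 scale. The tissue label was borne out by colon epithelial markers, with Slc26a3 between 820.6 and 1288 CPM and Epcam between 1442 and 1736 CPM, whereas the goblet cell mucin Muc2 ranged from 1716 to 35690 CPM. In CIA replicate 1 several liver transcripts stood apart, albumin (Alb) at 49.6 CPM against 0.451 to 3.55 CPM in the other 9 libraries. Adipocyte transcripts were uneven as well, the 8 listed markers summing to 301, 22.5, 278, 56.5 and 318 CPM in CIA replicates 1 to 5 and to 45.6, 97.4, 52.4, 89.2 and 13.03 CPM in naïve replicates 1 to 5. Of these 8 markers 7 had a higher and 1 a lower CIA mean, with a median log2 fold change of 1.65, and 1.29 without CIA replicate 1. The part of either tissue in the results below was not tested. Counts without CIA replicate 1 leave out the library with the liver transcripts, but not CIA replicates 3 and 5 with their adipocyte transcripts.

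The clock genes were examined first, because replicate 4 of each group departed from its labelled time. Arntl, the core activator, was at 41, 39.3, 28.7, 72.6 and 40.9 CPM in CIA replicates 1 to 5 and at 53.9, 58.5, 65.2, 12.03 and 70.3 CPM in naïve replicates 1 to 5. CIA replicate 4 was thus the highest of its group and naïve replicate 4 the lowest. Dbp, a direct output of ARNTL and CLOCK, gave 18.7, 13.9, 27.8, 3.096 and 15.2 CPM in CIA and 10.9, 5.95, 5.299, 84.2 and 4.03 CPM in naïve mice, with the order of both replicates turned round. The repressor Nr1d1 (REV-ERBα) gave 172, 240.4, 204, 55.9 and 161 CPM in CIA and 84.9, 134, 67.5, 277 and 139 CPM in naïve mice, where CIA replicate 4 was again the lowest and naïve replicate 4 the highest library. For comparison, Dbp in naïve mice ranged from 2.33 to 4.88 CPM at ZT0 and from 51.6 to 165 CPM at ZT8, so that naïve replicate 4 lay within the range seen 4 h later. In CIA mice Arntl ranged from 59.6 to 90.5 CPM at ZT0, a range that held CIA replicate 4.

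**Figure D1:**
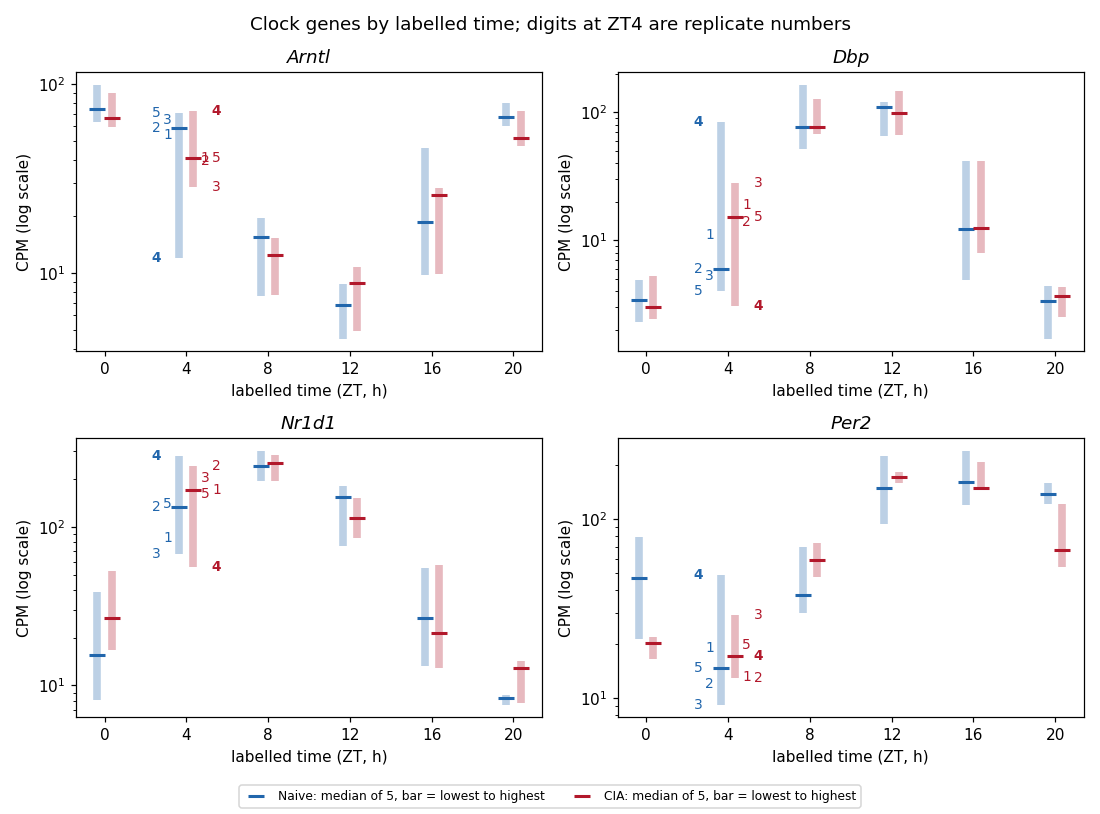
Levels of Arntl, Dbp, Nr1d1 and Per2 in CPM on a log axis against the labelled time in hours, with a mark at the median and a bar from the lowest to the highest of 5 libraries per group (blue naïve, red CIA). The digits at ZT4 are replicate numbers, with replicate 4 in bold: for Dbp, naïve replicate 4 sits at 84.2 CPM, inside the ZT8 range, and CIA replicate 4 at 3.10 CPM, inside the ZT0 range.

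When each library was matched to the mean profile of 19 clock genes at each time in its own treatment, CIA replicate 4 lay nearest to ZT0, at a distance of 2.48 log2 units against 4.99 to ZT4. Naïve replicate 4 lay nearest to ZT8, at 0.984 against 8.92. Of the remaining ZT4 libraries 7 lay nearest to ZT4, while naïve replicate 3 lay slightly nearer to ZT0 (3.82 against 4.33). With replicate 4 removed from the ZT4 profiles, naïve replicate 3 lay nearest to ZT4, at 2.54. Of the 50 libraries from other times, 45 lay nearest to their own label. Whether the 2 animals were sampled at another time, were labelled otherwise or had a shifted clock was not tested. Replicate 4 was the highest or lowest library of its group for 14 of 19 clock genes in CIA and 16 of 19 in naïve mice, against 48.42% and 41.05% of all genes tested.

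The 2 libraries deviated in opposite directions, CIA replicate 4 to the earlier and naïve replicate 4 to the later time. None of the 19 clock genes reached an unadjusted p under 0.05 in the 10 libraries, and 4 did without naïve replicate 4 alone. Without both, 7 had a CIA mean above and 3 below the naïve mean at that level, and 6 had the opposite sign of log2 fold change. Those libraries were left out on these same genes, so the clock gene values without them are a description. Arntl then had a log2 fold change of -0.73 and Nr1d1 of 0.87. Among the clock outputs, Dbp stood at 13.9 to 27.8 CPM in CIA replicates 1, 2, 3 and 5 and at 4.03 to 10.9 CPM in the matching naïve replicates, which did not overlap. Tef, a relative of Dbp, stood at 60.5 to 109.5 CPM in those CIA libraries and at 27.3 to 39.4 CPM in those naïve libraries. Cry1, a late-night repressor, stood at 10.5 to 21.9 CPM in CIA and 18.3 to 35.8 CPM in naïve mice, which overlapped. Per2, a repressor with its peak near dusk, gave a log2 fold change of -0.17 with all 10 libraries and 0.45 without both replicates numbered 4, and neither had an unadjusted p under 0.05 (0.694 and 0.182).

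Across all genes, no transcript differed between CIA and naïve colon at ZT4 at an adjusted p of 0.05 in edgeR's quasi-likelihood test on the 10 libraries, 0 of 18057 genes tested (0%), and the smallest adjusted p was 0.366. At an unadjusted p under 0.05 there were 1243 genes with the CIA mean above the naïve mean (6.88% of those tested) and 1134 below it (6.28%). The 5 CIA libraries lay wholly above the 5 naïve libraries for 155 genes (0.858%) and wholly below them for 195 (1.08%). The median log2 fold change over all genes was -0.03. DESeq2's Wald test on the same libraries called 52 genes higher and 87 lower at an adjusted p of 0.05, and limma voom with quality weights called none.

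With the spread estimated from all 60 libraries, which assumes that ZT4 libraries vary like the rest, the same contrast called 39 genes higher (0.216%) and 116 lower (0.642%) in CIA. That count depended on single libraries, since it was 0 without CIA replicate 3 and 1 without naïve replicate 5. It was 10 without CIA replicate 1, 16 without CIA replicate 2, 34 without CIA replicate 5 and 73 without naïve replicate 1. It was 227 without naïve replicate 2 and 223 without naïve replicate 3, and 1098 without CIA replicate 4 and 1087 without naïve replicate 4. Counts of list members called in that fit without a library are to be read against these totals. Without replicate 4 of both groups the test on the 8 remaining ZT4 libraries called 0 genes as well, with 1876 genes higher (10.4%) and 1748 lower (9.68%) at an unadjusted p under 0.05. Without both replicates numbered 4, the fit on the remaining 58 libraries called 1012 genes higher (5.6%) and 1033 lower (5.72%), and these held all 155 genes called with replicate 4 in place. Removing 1 more library changed that count: 584 higher (3.23%) and 806 lower (4.46%) were called without naïve replicate 5 as well, and 51 higher (0.282%) and 109 lower (0.604%) without CIA replicate 3 as well. These 58-library fits were added after the clock genes had been seen. Without CIA replicates 1 to 5 in turn, the 9 remaining libraries gave an unadjusted p under 0.05 with a higher CIA mean for 4.55%, 6.33%, 2.97%, 9.26% and 6.38% of all genes and with a lower one for 4.55%, 6.13%, 3.69%, 7.73% and 4.7%. Without naïve replicates 1 to 5 the shares were 5.61%, 4.92%, 7.11%, 8.83% and 4.08% higher and 5.38%, 5.55%, 5.78%, 8.38% and 4.9% lower. Counts of list members without a library are to be read against these shares. Unless another fit is named, log2 fold changes and p-values below come from the 10 libraries, where none passed adjustment.

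The 12 genes of at least 10 CPM on average with the smallest p and a higher CIA mean were led by Kctd12. Kctd12, an auxiliary subunit of GABA-B receptors, gave 99.8, 99.5, 118, 107 and 116 CPM in CIA and 59.4, 77.02, 61.7, 80.3 and 68.2 CPM in naïve mice. All CIA libraries exceeded all naïve libraries, with a log2 fold change of 0.64 (SE 0.10) and an unadjusted p of 4.62e-05. Cox7c, a subunit of cytochrome c oxidase, stood at 193 to 233 CPM in CIA and 159 to 183 CPM in naïve mice, also without overlap. Rnd3, a small GTPase that loosens actin fibres, stood at 54.1 to 87.7 and 39.5 to 48.9 CPM, and the imprinted long non-coding RNA Meg3 at 142 to 253 and 60.8 to 127 CPM. Ptger3, a prostaglandin E2 receptor, gave a log2 fold change of 0.61 (SE 0.15), Sstr1, a somatostatin receptor, 0.56 (SE 0.14) and Itgav, the integrin αV chain, 0.35 (SE 0.09). Tmod2, a cap of actin filaments in neurons, had overlapping groups only through CIA replicate 4 (20.3, 22.1, 29.4, 11.4 and 20.8 against 9.83, 11.4, 11.9, 13.8 and 11.4 CPM). The remaining genes, Dstyk, Cds2 and Zdhhc17, had log2 fold changes of 0.40, 0.32 and 0.24. Cldn4 completes the group and is given with the epithelial genes.

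The 12 genes of at least 10 CPM on average with the smallest p and a lower CIA mean were led by F13a1 and held Sqle, Hmgcs1 and Fdft1 of cholesterol synthesis, which are described below. F13a1, coagulation factor XIII of resident macrophages, gave 8.94, 9.798, 9.62, 6.06 and 5.97 CPM in CIA and 22.02, 19, 13.03, 13.6 and 14.8 CPM in naïve mice. Its log2 fold change was -1.03 (SE 0.20), at an unadjusted p of 0.000384. Ly6c2, a surface protein of blood monocytes, gave 6.98, 3.66, 3.66, 8.82 and 2.97 CPM in CIA and 24.7, 15.4, 17.6, 9.47 and 32.2 CPM in naïve mice. The groups did not overlap in either gene, although CIA replicate 4 and naïve replicate 4 were adjacent for Ly6c2. Plaat3, a phospholipase A, stood at 28.4 to 35.3 CPM in CIA and 38.4 to 63.4 CPM in naïve mice. Chid1, Ggact, Ccar2, Niban2, Gmppa and the lysosomal gene Cln3 also had no overlap between the groups, at log2 fold changes of -0.41, -0.33, -0.26, -0.40, -0.34 and -0.28. Small differences therefore separated the groups where replicates were tight, Ccar2 being at 59.6 to 62.3 CPM in CIA and 69.98 to 78.1 CPM in naïve mice. In the 58-library fit Ly6c2 and Plaat3 had adjusted p-values of 0.00252 and 0.00252. That fit called 5.72% of all genes lower, and 0.604% with CIA replicate 3 left out as well.

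Genes of cholesterol synthesis and uptake had lower mean levels in CIA than in naïve colon at ZT4. They are switched on together by the transcription factor SREBP2, the product of Srebf2, when membrane cholesterol is low. All 22 listed genes had a lower CIA mean, and 20 had an unadjusted p under 0.05, against 6.28% of all genes tested. The median log2 fold change was -0.61, against -0.03 over all genes. The 60-library fit called 7 of the 22 lower (all genes, 0.642%) and the 58-library fit without replicate 4 called 17 (5.72%), which was 12 when naïve replicate 5 (4.46%) and 1 when CIA replicate 3 (0.604%) was left out as well. In the 60-library fit none was called without CIA replicate 2, CIA replicate 3, naïve replicate 1 or naïve replicate 5, 1 without CIA replicate 5 and 3 without CIA replicate 1, and 14 to 16 without naïve replicate 2, naïve replicate 4 or CIA replicate 4.

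Hmgcs1, which makes HMG-CoA at the entry of the pathway, gave 262, 152, 172, 236 and 212 CPM in CIA and 549.5, 243, 379, 396 and 377 CPM in naïve mice. Only naïve replicate 2 fell among the CIA values, and the log2 fold change was -0.91 (SE 0.21) with an unadjusted p of 0.00109. Sqle, which oxidises squalene in the first oxygen-dependent step, gave 99.3, 58.5, 66.2, 82.02 and 85.1 CPM in CIA and 154, 101, 143, 111 and 124 CPM in naïve mice, with no overlap. Nsdhl, a late enzyme that works on the sterol ring, did not overlap either and gave a log2 fold change of -0.60 (SE 0.15). For the middle of the pathway, Fdft1 (squalene synthase) stood at 86.3 to 132 CPM in CIA and 112 to 181 CPM in naïve mice and Mvd, which makes isopentenyl diphosphate, at 26.9 to 44.8 and 39.02 to 66.02 CPM.

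Srebf2 itself gave 244, 197, 187, 203 and 221 CPM in CIA and 294, 251, 272, 225 and 286 CPM in naïve mice, where naïve replicate 4 fell among the CIA values, at a log2 fold change of -0.34 (SE 0.10). The 2 members above an unadjusted p of 0.05 were Sc5d, a late desaturase (log2 fold change -0.19, unadjusted p of 0.157), and Stard4, a cholesterol carrier (-0.49 and 0.0967). CIA replicate 2 was the lowest library of the set, whose levels summed to 2104, 1441, 1596, 1955 and 1863 CPM in CIA and 3454, 2017, 2846, 2510 and 2622 CPM in naïve replicates 1 to 5. The summed ranges overlapped by 1 pair of libraries, CIA replicate 1 and naïve replicate 2.

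The promoter of Hmgcs1 is shown because the gene stood among the lowest p-values of the set and holds the sterol regulatory element searched for. Windows of 250 bases before to 50 after each RefSeq start on GRCm38.p6 were found for 14 of the 22 genes. Of the 14, 1 (7.14%) held TCACNCCAC on either strand, against 1.44% of 27025 genes with a window. That share rests on Hmgcs1 alone, so it does not set the list apart. The match describes the letters and not binding. The Hmgcs1 window (chr13:119690101-119690400, plus strand) is printed 5′ to 3′ with the match in capitals, 137 bases before the start.
Hmgcs1: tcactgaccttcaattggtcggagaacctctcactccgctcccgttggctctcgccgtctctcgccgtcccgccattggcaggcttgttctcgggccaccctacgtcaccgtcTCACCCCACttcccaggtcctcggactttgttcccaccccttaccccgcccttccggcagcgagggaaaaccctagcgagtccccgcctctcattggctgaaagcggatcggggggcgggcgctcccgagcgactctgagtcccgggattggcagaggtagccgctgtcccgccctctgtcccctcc

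**Figure D2:**
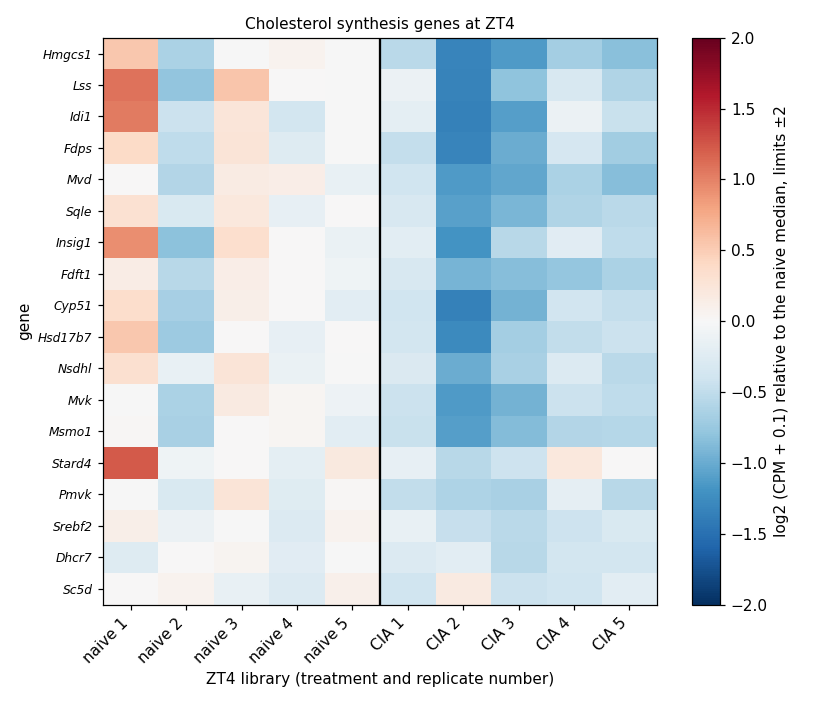
The 18 cholesterol synthesis genes shown (rows, ordered by log2 fold change) in the 5 naïve and 5 CIA libraries at ZT4 (columns), coloured by log2 (CPM + 0.1) relative to the naïve median. Most CIA cells are blue, deepest in CIA replicates 2 and 3, and naïve replicate 2 is the bluest and naïve replicate 1 the reddest of the naïve columns.

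Interferon-stimulated genes also had lower values in CIA mice, and naïve replicate 5 stood far above every other library. These genes code for antiviral sensors and effectors and are switched on by a transcription factor complex that holds STAT2 and IRF9. All 36 listed genes had a lower CIA mean, 30 had an unadjusted p under 0.05 (all genes, 6.28%), and the median log2 fold change was -1.33. Summed over the list, naïve replicate 5 reached 7160 CPM, whereas naïve replicates 1 to 4 gave 1163, 1703, 2065 and 2156 CPM and CIA replicates 1 to 5 gave 1077, 976, 1402, 1495 and 1543 CPM. Without naïve replicate 5 the median was -0.59 and 17 of 36 had an unadjusted p under 0.05, against 4.9% of all genes in that fit. Without CIA replicate 1 or 2 the count was 18 or 20.

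Isg15, a ubiquitin-like protein, gave 15.9, 16.7, 22.1, 25.6 and 30.4 CPM in CIA and 14.5, 39.5, 46.7, 64.5 and 324 CPM in naïve mice. Naïve replicate 5 stood far above the next library, and naïve replicate 1 lay below every CIA library. Ifi44 gave 2.89, 1.87, 2.31, 3.76 and 7.04 CPM in CIA and 2.55, 12.03, 12.1, 12.6 and 164 CPM in naïve mice, and the schlafen gene Slfn4, which is not on the list, 34.6, 31.6, 22.2, 59.5 and 60.7 CPM and 41.6, 86.5, 54.7, 86.2 and 1177 CPM. Stat2, a subunit of the complex that binds these promoters, gave 45.6, 44.1, 44.1, 54.7 and 62.3 CPM in CIA and 73.5, 82.1, 82.9, 87.1 and 261 CPM in naïve mice. Here the groups did not overlap, and the log2 fold change of -1.23 (SE 0.34) was -0.70 without naïve replicate 5 (unadjusted p = 0.000134). Cxcl9, a chemokine that draws activated T cells, gave 0.553, 1.94, 0.852, 1.06 and 1.998 CPM in CIA and 3.89, 3.14, 12.4, 6.47 and 26.9 CPM in naïve mice and also did not overlap. Oas2, which makes the second messenger of RNase L, and Ddx58 (RIG-I) completed the 4 of 36 members whose CIA libraries lay wholly below the naïve ones (all genes, 1.08%), at -2.74 (SE 0.79) and -0.64 (SE 0.26).

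The 60-library fit called 11 of the 36 lower (all genes, 0.642%). It called 0 without naïve replicate 5 or CIA replicate 3 and 2 without CIA replicate 1 or 2. The count was 18 to 24 without naïve replicate 1, 2, 3 or 4 or CIA replicate 4. All genes called in either direction then numbered 73, 227, 223, 1087 and 1098. The 58-library fit without replicate 4 called 24 (all genes, 5.72%). The count was 12 when CIA replicate 1 was left out too (821 of all 18057 genes) and 7 when CIA replicate 3 was (0.604%). It was 1 when naïve replicate 5 was left out too (4.46%), which was Cxcl9 (adjusted p = 0.0165, log2 fold change -2.27). MHC class I genes, which interferons also induce, had 6 of 16 members with an unadjusted p under 0.05, all with a lower CIA mean (all genes, 6.28%), and a median of -0.47. That count was 3 without CIA replicate 1 or 3, 2 without naïve replicate 5 and 14 without naïve replicate 1. For MHC class I the 58-library fit called 6 (all genes, 5.72%), and 1 when CIA replicate 1, CIA replicate 3 (0.604%) or naïve replicate 5 (4.46%) was left out as well. B2m, the light chain of MHC class I, gave 550.5, 548, 569, 675 and 702 CPM in CIA and 610.4, 907, 1143, 698 and 1392 CPM in naïve mice, and the peptide transporter Tap1 32.4, 51.9, 24.4, 31.8 and 57.6 and 31.7, 73.1, 76.1, 76.6 and 183 CPM. Naïve replicate 5 was highest for both, and the groups overlapped.

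The promoters of Isg15 and Ifit1 are shown because they hold the interferon-stimulated response element more than once. The letters TTTCNNTTTC, searched on both strands with overlaps counted, were found in the windows of 16 of 25 listed genes that had one (64%), against 3.99% of all 27025 genes. Such a match is a description of the letters and not of binding. The Isg15 window (chr4:156200769-156201068, minus strand) held 3 overlapping matches from 78 bases before the start, and the Ifit1 window (chr19:34640639-34640938, plus strand) 2 matches, 104 and 85 bases before it, both in capitals.
Isg15: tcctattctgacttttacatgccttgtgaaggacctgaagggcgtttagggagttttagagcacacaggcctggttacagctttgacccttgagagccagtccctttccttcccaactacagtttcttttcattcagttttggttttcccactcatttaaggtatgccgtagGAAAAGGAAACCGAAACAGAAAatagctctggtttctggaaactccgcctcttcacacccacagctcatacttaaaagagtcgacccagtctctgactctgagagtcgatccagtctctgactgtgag
Ifit1: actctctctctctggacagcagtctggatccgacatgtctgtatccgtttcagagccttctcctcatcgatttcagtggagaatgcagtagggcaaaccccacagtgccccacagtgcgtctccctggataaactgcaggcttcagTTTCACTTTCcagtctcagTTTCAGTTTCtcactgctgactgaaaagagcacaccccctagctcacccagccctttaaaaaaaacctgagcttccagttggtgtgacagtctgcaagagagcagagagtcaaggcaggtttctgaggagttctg

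**Figure D3:**
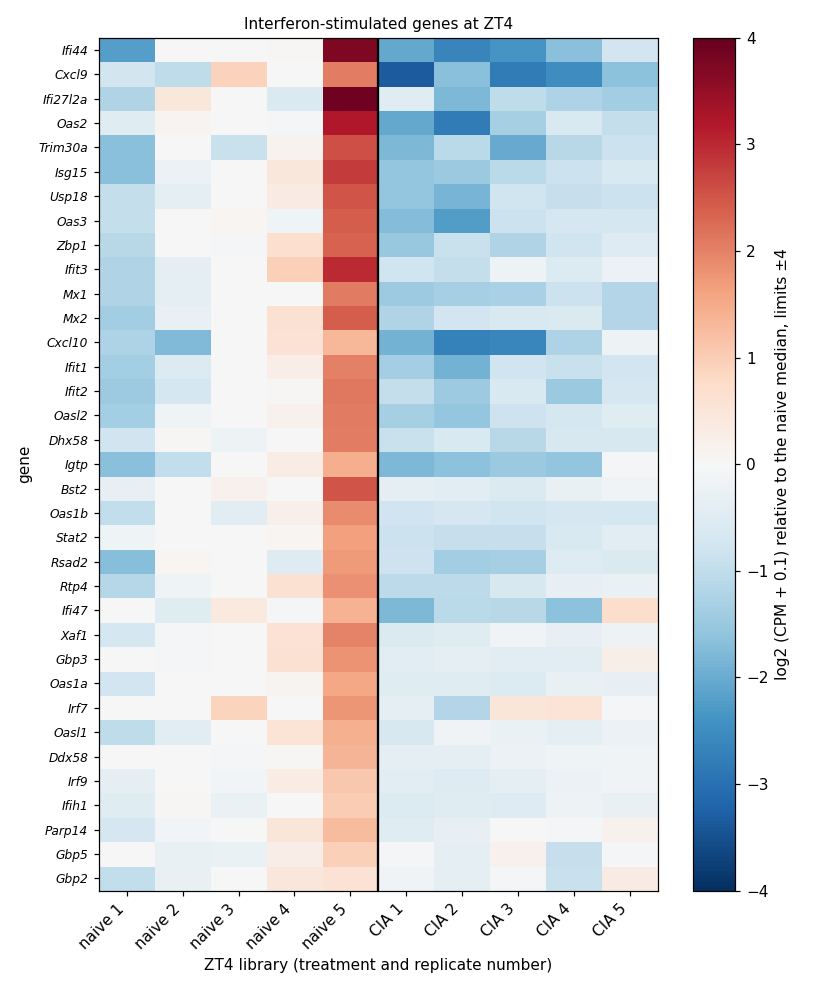
The 35 interferon-stimulated genes shown (rows) in the 10 ZT4 libraries (columns), coloured by log2 (CPM + 0.1) relative to the naïve median. Naïve replicate 5 is the single red column, Ifi44 standing there at 164 CPM, and naïve replicate 1 is blue for most genes, as the CIA columns are.

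Macrophage and monocyte markers had lower mean levels in CIA mice for 18 of 20 listed genes. Of the 20, 12 had an unadjusted p under 0.05 and a lower CIA mean (all genes, 6.28%), 11 without naïve replicate 5, and the median was -0.56. Csf1r, the growth factor receptor that macrophages need to survive, gave 27.2, 37.6, 24.2, 34.1 and 30.8 CPM in CIA and 57.3, 52.6, 37.7, 39.7 and 46.4 CPM in naïve mice, with no overlap and a log2 fold change of -0.60 (SE 0.15). Ms4a7, a membrane protein of resident macrophages, gave 5.1, 4.73, 3.81, 6.61 and 3.48 CPM and 14.5, 7.91, 8.999, 5.54 and 8.47 CPM, and Fcgr1, a high-affinity IgG receptor, 0.854, 0.801, 0.977, 1.57 and 0.723 CPM and 2.93, 1.27, 1.77, 1.58 and 3.41 CPM. Naïve replicate 4 fell among the CIA values of Ms4a7, and naïve replicate 2 among those of Fcgr1. The 60-library fit called 4 of the 20 (all genes, 0.642%), but 0 without CIA replicate 2, CIA replicate 3 or naïve replicate 5. It called 1 without CIA replicate 1, CIA replicate 5 or naïve replicate 1. The 58-library fit called 10 (all genes, 5.72%), which was 10 without naïve replicate 5 (4.46%) and 3 without CIA replicate 3 (0.604%) as well. The summed level of the 20 markers overlapped, at 893 to 1428 CPM in CIA and 1103 to 1928 CPM in naïve mice.

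Cytotoxic and natural killer cell genes had a median log2 fold change of -1.60, and 9 of 13 had an unadjusted p under 0.05 with a lower CIA mean (all genes, 6.28%). Their levels were low, the 13 genes summing to 3.5 to 8.8 CPM in CIA and 10.4 to 28.9 CPM in naïve mice, which did not overlap. Ncr1 (NKp46), a receptor of natural killer cells, gave 0.201, 0.534, 0.2004, 0.619 and 0.381 CPM in CIA and 1.77, 0.861, 0.964, 0.782 and 2.15 CPM in naïve mice. Nkg7, of cytotoxic granules, gave 0.352, 0.572, 0.1002, 0.442 and 0.114 and 0.705, 1.32, 1.04, 0.868 and 2.18 CPM. Both were without overlap. The count was 5 without naïve replicate 5 (all genes, 4.9%). The 58-library fit called 6 (all genes, 5.72%), and 0 when naïve replicate 5 (4.46%) or CIA replicate 3 (0.604%) was left out as well. Of 20 T cell genes, 2 passed that p with a lower CIA mean (all genes, 6.28%, median of the list -0.78), the costimulatory receptor Cd28 at -1.16 (SE 0.35) and Lck, the kinase of the T cell receptor, at -0.73 (SE 0.32). The T cell count was 6 without CIA replicate 2, 4 without naïve replicate 1 and 1 without CIA replicate 1, 3 or 5 or naïve replicate 2 or 5. Summed T cell markers were at 16.1 to 70.4 CPM in CIA and 32.7 to 113 CPM in naïve mice. No member of the 16 listed B cell genes passed, and their sum varied from 36.7 to 846 CPM over the 10 libraries.

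Plasma cell and immunoglobulin transcripts had lower CIA means in 17 of 17 plasma cell genes, 83 of 91 kappa and 76 of 79 heavy chain variable segments. Of the plasma cell genes 9 had an unadjusted p under 0.05, all lower (all genes, 6.28%, median of the list -0.61), and 5 without CIA replicate 3. Igkc, the kappa light chain constant region, gave 766, 435, 536, 1148 and 473 CPM in CIA and 2528, 1348, 1364, 1005 and 1012 CPM in naïve mice. CIA replicate 4 lay within the naïve values and naïve replicate 1 stood far above the rest, so that the groups overlapped at a log2 fold change of -1.11 (SE 0.33). The IgA heavy chain Igha gave -0.92 (SE 0.36) and the joining chain Jchain, which links IgA into dimers, -0.98 (SE 0.39). Of the kappa segments 35 and of the heavy segments 29 had an unadjusted p under 0.05, all lower (all genes, 6.28%), with medians of -1.37 and -1.33. Leaving out each library gave 24 to 48 kappa and 12 to 42 heavy segments, the 12 being without naïve replicate 1, and 48 heavy segments passed without both replicates numbered 4. Such segments are near copies of each other, so the counts of any 1 segment are uncertain. In the 58-library fit 6 of 17 plasma cell genes, 19 of 91 kappa and 17 of 79 heavy segments were called lower (all genes, 5.72%). With CIA replicate 3 left out these were 0, 1 and 0 (0.604%).

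Transcripts of smooth muscle and of the nerves of the muscle coat had higher mean levels in CIA mice. The interstitial cells of Cajal, which also lie in that coat, did not share this. Of their 5 listed genes 2 had a higher and 3 a lower CIA mean, with a median log2 fold change of -0.002. All 26 smooth muscle genes had a higher CIA mean, 17 with an unadjusted p under 0.05 (all genes, 6.88%), and the median was 0.68. Summed, they reached 36880, 33620, 57890, 24670 and 24600 CPM in CIA and 11400, 19810, 31740, 28800 and 17930 CPM in naïve replicates 1 to 5, so the groups overlapped. Mylk, the kinase that triggers contraction, gave 1520.0, 1383, 2616, 1089 and 1153 CPM in CIA and 536, 788, 1251, 1167 and 646 CPM in naïve mice (0.82, SE 0.29), and Myocd, the coactivator of the smooth muscle programme, 5.25, 9.02, 11, 4.64 and 4.42 and 2.65, 3.19, 5.55, 2.56 and 3.27 CPM. The count was 10 without CIA replicate 1 or 2, 3 without CIA replicate 3, 8, 6 and 7 without naïve replicates 1, 2 and 5, and 25 without naïve replicate 3, against the shares of all genes given above, which were 2.97% without CIA replicate 3 and 4.08% without naïve replicate 5.

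All 25 enteric neuron genes had a higher CIA mean too, 15 with an unadjusted p under 0.05 (all genes, 6.88%, median of the list 0.83). Chat, which makes acetylcholine, gave 2.64, 3.87, 3.96, 2.41 and 2.65 CPM in CIA and 1.33, 1.47, 1.77, 1.69 and 1.62 CPM in naïve mice, with no overlap, and a log2 fold change of 0.97 (SE 0.20). Uchl1 and Prph, abundant proteins of enteric neurons, were at 30.1 to 79.4 and 33.7 to 87.6 CPM in CIA and 9.07 to 39.3 and 11.4 to 46.5 CPM in naïve mice. Replicate 1 had the lowest naïve value of both, and replicate 4 had the highest naïve and the lowest CIA value. Without CIA replicate 3 the count was 2 (all genes, 2.97%), and it was 7 without CIA replicate 1, 9 without CIA replicate 2, 10 without CIA replicate 5, 8 without naïve replicate 3 and 7 without naïve replicate 5, where 4.55%, 6.33%, 6.38%, 7.11% and 4.08% of all genes passed. Of 12 enteric glia genes 6 passed (all genes, 6.88%, median of the list 0.67), among them the cadherin Cdh19 at 1.285 (SE 0.38) and the transcription factor Foxd3 at 1.08 (SE 0.34), and 3 passed without CIA replicate 3. In the 58-library fit 14 of 26 smooth muscle, 19 of 25 neuron and 7 of 12 glia genes were called higher (all genes, 5.6%), 0, 4 and 1 with CIA replicate 3 left out (0.282%), and 4, 19 and 4 with naïve replicate 5 left out (3.23%).

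Receptors and signals of the muscle coat had 7 members above (all genes, 6.88%) and 2 below (6.28%) at an unadjusted p under 0.05, of 22. The 7 became 4 without CIA replicate 1 or naïve replicate 5, 3 without CIA replicate 3 and 11 without both replicates numbered 4, and the 2 became 1 without CIA replicate 2 or naïve replicate 4 or 5. Adra1a, an adrenergic receptor, gave 1.66, 0.553, 1.403, 0.8404 and 0.913 CPM in CIA and 0.457, 0.355, 0.347, 0.304 and 0.168 CPM in naïve mice, and the tachykinin receptor Tacr3 3.22, 1.83, 5.46, 1.902 and 2.25 and 0.9904, 0.861, 1.35, 1.43 and 1.23 CPM. Neither overlapped. Vipr1, the receptor for vasoactive intestinal peptide on epithelium, had the opposite direction, at 236 to 282 CPM in CIA and 284 to 329 CPM in naïve mice. The summed level of smooth muscle genes varied between libraries as given above, and their mean log2 level was therefore added to the model as a covariate. That covariate is built from the 26 smooth muscle genes, so their own count under it was largely set in advance. All 26 had a higher CIA mean, so it also takes up part of any difference that goes with treatment. Counts under it are a description. With it, 261 genes had an unadjusted p under 0.05 and a higher CIA mean (1.45%) and 329 a lower one (1.82%). Cholesterol synthesis then had 10 of 22 lower, interferon-stimulated genes 4 of 36, macrophage genes 3 of 20, cytotoxic genes 4 of 13, plasma cell genes 1 of 17, MHC class I genes 1 of 16, and kappa and heavy segments 12 of 91 and 4 of 79. No member of the T cell, DNA replication and endoplasmic reticulum lists was left below. Of members with a higher CIA mean, smooth muscle then had 0 of 26, neuron genes 1 of 25, glia genes 1 of 12 and muscle receptors and signals 2 of 22. Cytokine genes, whose list median was -0.12 in the 10 libraries, had 1 of 21. Tight junction genes, with a median of 0.01, had 1 of 32, and the respiratory chain 0 of 28.

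**Figure D4:**
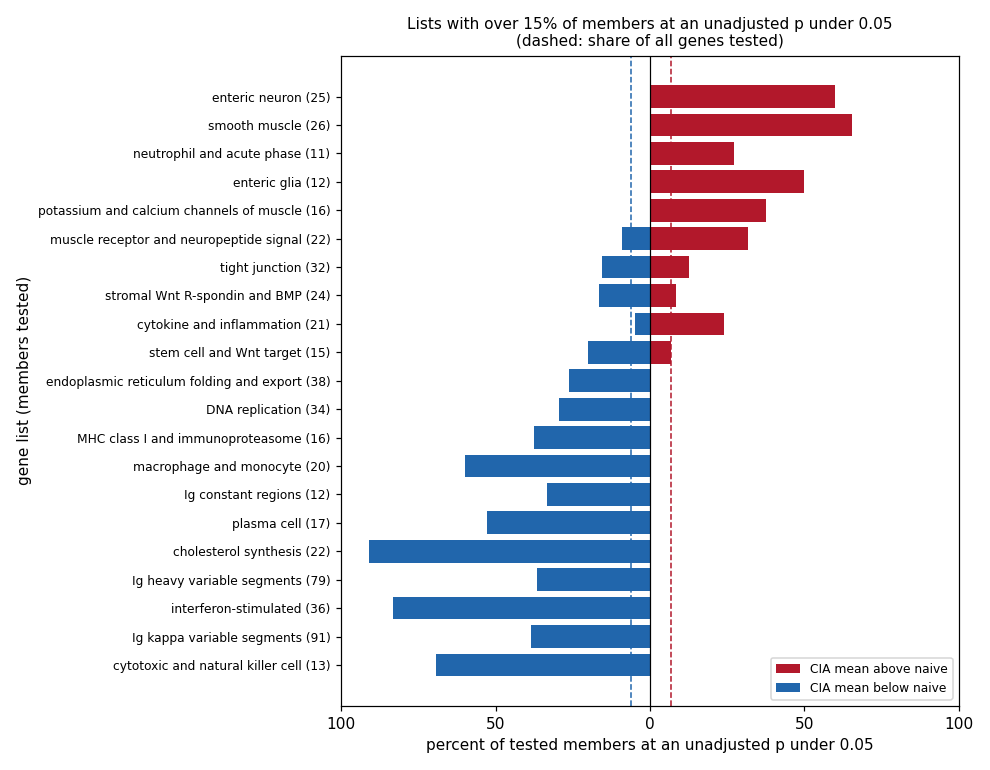
Share of each list's tested members with an unadjusted p under 0.05, to the right where the CIA mean was higher and to the left where it was lower, for the lists of 10 or more genes in which either share was over 15%. Dashed lines mark the shares of all 18057 genes, 6.88% and 6.28%; cholesterol synthesis reaches furthest left and smooth muscle furthest right.

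Genes of epithelial defence and the acute phase had single members with separated groups. Saa3, an acute phase protein, gave 6.36, 4.88, 6.29, 4.27 and 3.16 CPM in CIA and 1.62, 0.329, 1.97, 0.847 and 1.43 CPM in naïve mice, without overlap, at a log2 fold change of 2.00 (SE 0.41). It was 1 of 3 members above (all genes, 6.88%), of 11 neutrophil and acute phase genes, beside S100a9 (2.08, SE 0.56, under 1 CPM in all libraries) and Hp (1.68, SE 0.73), where CIA replicate 1 with its liver transcripts was highest. Nos2, the inducible nitric oxide synthase, gave 34.2, 5.38, 117, 83.5 and 54.9 CPM in CIA and 4.34, 2.71, 6.71, 39.4 and 6.46 CPM in naïve mice. Duoxa2, which matures the hydrogen peroxide source DUOX2, gave 40.1, 15.5, 54.9, 55.8 and 47.2 CPM and 8.67, 10.6, 11.7, 30.9 and 18.6 CPM. For Nos2 the groups were separate but for CIA replicate 2 and naïve replicate 4, and for Duoxa2 but for CIA replicate 2, and the 58-library fit gave adjusted p-values of 0.0188 and 0.0449, which were 0.121 and 0.166 with CIA replicate 3 left out as well. Of 21 cytokine and inflammation genes 10 had a higher and 11 a lower CIA mean, and the median was -0.12. At an unadjusted p under 0.05, 5 were above (all genes, 6.88%) and 1 below (6.28%). The 5 became 3 without CIA replicate 2 or 3 or naïve replicate 1, and 2 without CIA replicate 4 or 5, naïve replicate 2 or 3, or both replicates numbered 4, while the 1 became 2 without CIA replicate 2.

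Tight junction genes were split. Of 32, 4 had an unadjusted p under 0.05 with a higher (all genes, 6.88%) and 5 with a lower CIA mean (6.28%), and the median was 0.01. The 4 became 2 without CIA replicate 1 or 5 and 1 without CIA replicate 3 or naïve replicate 1, 2 or 5. The 5 became 3 without CIA replicate 1 or 2 or naïve replicate 3, 2 without CIA replicate 5 or naïve replicate 5, and 1 without CIA replicate 3 or naïve replicate 2. Cldn4, a barrier-forming claudin of surface epithelium, gave 123, 180.1, 109, 118 and 124 CPM in CIA and 71.01, 80.8, 81.1, 103 and 58.8 CPM in naïve mice, with no overlap and a log2 fold change of 0.73 (SE 0.17). Cldn2, a claudin that forms cation and water pores, gave 58.7, 75.5, 32.02, 58.6 and 62.9 CPM and 124, 127, 77.8, 67.9 and 109.9 CPM (-0.81, SE 0.23). Jam3, an adhesion molecule of junctions, gave 25, 23.98, 32.9, 16.8 and 21.6 CPM and 13.1, 16.5, 19.3, 24.9 and 14.7 CPM (0.44, SE 0.20, unadjusted p of 0.0538). Among 18 goblet cell genes 1 passed with a lower CIA mean (all genes, 6.28%), and 4 without both replicates numbered 4 (9.68%). The 1 was Ern2, a stress sensor of mucin-making cells, at -0.84 (SE 0.37), where naïve replicate 1 stood at 165 CPM and CIA replicate 4 at 75.8 CPM. The goblet cell count was 3 without CIA replicate 4, 2 without naïve replicate 4 and 0 without CIA replicate 1, 2, 3 or 5 or naïve replicate 3. None of 23 colonocyte transport genes passed in the 10 libraries, and the median there was 0.07, but 3 passed higher and 1 lower without CIA replicate 2, 2 higher without naïve replicate 3 or 4 and 2 lower without naïve replicate 1.

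All 34 DNA replication genes had a lower CIA mean, 10 of them with an unadjusted p under 0.05 (all genes, 6.28%, median of the list -0.38), and 25 without both replicates numbered 4 (9.68%). The 10 became 16 without CIA replicate 4 and 24 without naïve replicate 4, but 6 without naïve replicate 3, 5 without CIA replicate 2, 4 without CIA replicate 5 or naïve replicate 5, 3 without CIA replicate 3 and 2 without naïve replicate 1. The 58-library fit called 9 (all genes, 5.72%), and 3 or 0 when naïve replicate 5 (4.46%) or CIA replicate 3 (0.604%) was left out as well. Mcm5, a subunit of the replicative helicase, gave 18.7, 14.5, 13.2, 24.7 and 20.3 CPM in CIA and 41.9, 24.1, 32.9, 17.1 and 32.9 CPM in naïve mice, replicate 4 again being the CIA maximum and the naïve minimum. Of 38 genes for protein folding and export in the endoplasmic reticulum 34 had a lower CIA mean, and 10 were below (all genes, 6.28%) and none above at that level. The 10 became 5 without naïve replicate 3, 4 without CIA replicate 1 or 5, 3 without CIA replicate 2 or 3 or naïve replicate 1, and 17 without both replicates numbered 4. The 58-library fit called 14 (all genes, 5.72%), and 2 when CIA replicate 3 was left out as well (0.604%). Calr, a calcium-binding chaperone, gave 245, 222, 195, 293 and 263 CPM and 528, 375, 324, 240.3 and 370.2 CPM. The respiratory chain had the opposite direction in 4 of 28 genes (all genes, 6.88%), which was 2 without CIA replicate 5 or naïve replicate 1 or 2, Cox4i1 being at 895 to 1036 CPM in CIA and 684 to 889 CPM in naïve mice without overlap, but its median was 0.04.

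The ZT4 difference was then set against the mean difference of the other 5 times, in a single fit of the 60 libraries. No gene differed at an adjusted p of 0.05, and 197 (1.09%) had a more positive and 317 (1.76%) a more negative difference at ZT4 at an unadjusted p under 0.05. Without CIA replicates 1 to 5 in turn these shares were 0.98%, 1.46%, 1.09%, 1.1% and 1.07% more positive and 1.52%, 2.2%, 1.55%, 1.92% and 1.77% more negative, and without naïve replicates 1 to 5 they were 2.61%, 0.941%, 0.991%, 1.73% and 0.958% and 2.15%, 1.66%, 1.84%, 2.43% and 1.01%. Of the cholesterol genes 17 of 22 were among the latter, 12 to 17 without each ZT4 library in turn and 20 without both replicates numbered 4 (3.01% of all genes). Of the interferon-stimulated genes 30 of 36 were among them and of the MHC class I genes 11 of 16, but without naïve replicate 5 (1.01% of all genes) there was 1 of each, and without CIA replicate 1 (1.52%) 7 of the MHC class I genes. Ifi27l2a, a small interferon-induced membrane protein, led by p, with a difference of -2.58 (SE 0.60) log2 units (unadjusted p = 7.30e-05), and its levels were 18.1, 7.22, 12.6, 10.8 and 9.61 CPM in CIA and 11.1, 35.3, 25.5, 17.1 and 382 CPM in naïve mice. Without naïve replicate 5 the Ifi27l2a difference was -0.50 (unadjusted p = 0.245). Hmgcs1 differed by -0.81 (SE 0.22) (unadjusted p = 0.000445) and Fdft1 by -0.70 (SE 0.19) (unadjusted p = 0.000449), and by -0.82 and -0.71 without that library.

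In the other direction the smallest p-values belonged to the liver transcripts Apoa2, Pzp and Mup3, at differences of 7.63, 5.59 and 7.31 log2 units (unadjusted p = 7.81e-05, 0.0003004 and 0.000425), and Alb differed by 3.73. CIA replicate 1 held 7.41, 6.83 and 5.12 CPM of Apoa2, Pzp and Mup3, and no other ZT4 library more than 0.0885, 0.1002 and 0.152 CPM. Without CIA replicate 1 the 4 differences were 2.86, 1.27, -1.17 and 0.33, at unadjusted p-values of 0.123, 0.356, 0.9998 and 0.698. Among genes of at least 10 CPM on average over the 60 libraries, the leading ones were Armc6, Fastkd1, Flvcr1, Coa8 and Rnd3, which differed by 0.22 to 0.46.

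Each time has its own naïve and CIA libraries, so the list medians can be placed side by side. That of the cholesterol genes was -0.61 at ZT4 and between -0.30 and 0.13 at the other times, and that of the interferon-stimulated genes -1.33 at ZT4, -0.89 at ZT12 and between -0.28 and 0.22 elsewhere. At ZT12 too a naïve group held a library far above the rest of it, the list summing to 1204 to 5280 CPM with a median of 1391. The summed cholesterol level was 1441 to 2104 CPM in CIA at ZT4, the lowest of the 12 groups by its median of 1863. The medians of smooth muscle (0.43 to 0.93) and enteric neuron genes (0.23 to 0.95) were positive at all 6 times, and those of macrophage genes (-0.60 to -0.30) and cytotoxic genes (-1.60 to -0.45) negative. At an unadjusted p under 0.05, 0 of 26 smooth muscle and 1 of 25 neuron genes had a more positive difference than at the other times (all genes, 1.09%). A more negative difference was found for 0 of 20 macrophage and 2 of 13 cytotoxic genes (all genes, 1.76%). Without both replicates numbered 4 the neuron count was 13 (2.34% of all genes higher) and the macrophage count 3 (3.01% lower). The cytotoxic count was 5 without CIA replicate 2 (2.2% of all genes lower) and 0 without naïve replicate 5 (1.01% lower). Leaving out each of the other ZT4 libraries gave 1 to 3 cytotoxic genes, to be read against the shares given above. Leaving out each ZT4 library gave 0 to 2 neuron and 0 to 2 macrophage genes.

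**Figure D5:**
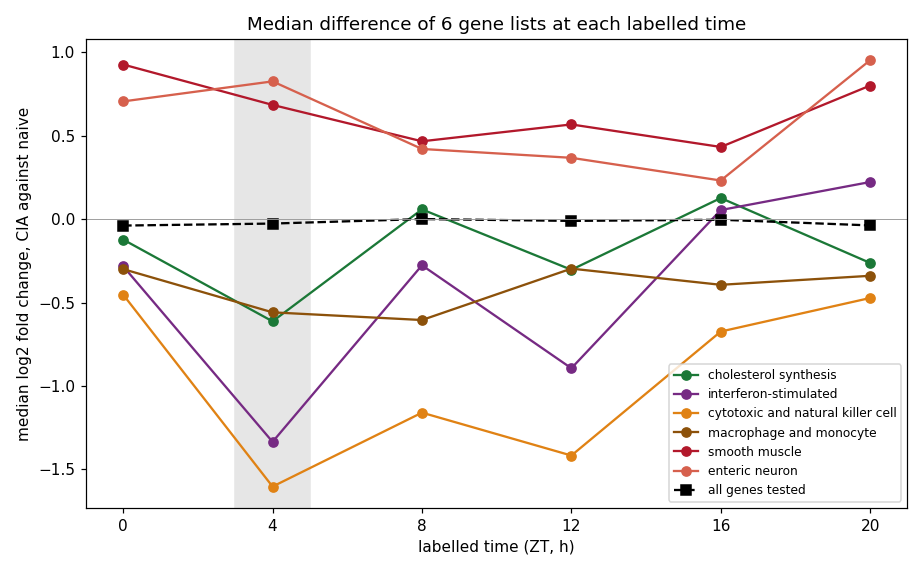
Median log2 fold change (CIA against naïve) of 6 gene lists and of all genes at each labelled time in hours, ZT4 being shaded. The cholesterol and interferon-stimulated medians have their lowest points at ZT4, -0.61 and -1.33, while smooth muscle and enteric neuron medians stay above 0 and macrophage and cytotoxic medians below 0 at all 6 times.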

How the data were processed

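Colon RNA was sequenced from stranded mRNA libraries. The tools named are bcl2fastq (2.17.1.14) for demultiplexing, STAR (2.5.3) for mapping and, before it, Trimmomatic (0.36), per the submitters' processing notes and the study's methods. The authors deposited raw read counts for 27179 genes in 60 libraries, aligned to mm10. Of deposited counts from 1 to 20 in the ZT4 libraries, 73.39% were even, and halved counts were tried as an alternative. Entrez identifiers were given symbols from RefSeq (25275) and GENCODE (18), and the 1886 without a symbol held 0.528% of counts.

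Genes were kept with edgeR 4.0.16 filterByExpr (minimum count 10, minimum total 15) over 12 groups, leaving 18057, and scaled by TMM. CIA and naïve libraries at ZT4 were compared by the quasi-likelihood F test with Benjamini-Hochberg adjustment at 0.05. The ZT4 difference against the mean of the other 5 times was fitted on 60 libraries. R 4.3.3, limma 3.58.1 and DESeq2 1.42.0 were used. The fits were run on simulated counts with known folds. No deviating library was built into these, so they do not bear on the dependence on single libraries. Alternatives were DESeq2 scaling and test, limma voom, robust edgeR, other filters, halved counts, a replicate block, a smooth muscle covariate, 60-library fits and leaving out libraries. The 58-library fits and the list counts without each library were chosen after seeing the data.

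The members and gene lists were chosen with earlier results of these data known. Genes are named as the 19 clock genes, the 12 per direction with the smallest p and a mean of at least 10 CPM (none passed adjustment), up to 4 per list by p, 5 per direction against other times at the same mean over 60 libraries, and Per2, Cldn4 and Jam3. Some items are not reported here, though they stay in the counts over lists and all genes. Srebf2, Nsdhl, Sc5d, Stard4, Isg15, Ddx58, Alb, Apoa2, Pzp and Mup3 were added after their values were seen.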

Additional observations from a re-analysis of the deposited data

Results flagged for a closer look

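The 135 named genes were examined in each of the 2 groups of 5 libraries, and in 34 of those 270 groups a single library stood apart from the other 4 by more than 0.71 of the whole range. That limit passes about 1 in 20 groups of 5 independent, normally spread values. These CPM values need not be so spread, and the genes vary together and were partly chosen by their values here. The count of 34 is therefore not set against chance. Values are in CPM.

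Replicate 4 of the naïve group was the highest library for the clock genes Per2 (48.8), Per3 (61.1), Dbp (84.2), Tef (191), Hlf (24.1) and Ciart (18.9) and for Nos2 (39.4), and it was the lowest for Arntl (12.03). Replicate 4 of the CIA group was the highest for Arntl (72.6), Chid1 (35.1) and Igkv4-61 (2.26).

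Replicate 5 of the naïve group was the highest library for the interferon-related genes Stat2 (261), Oas2 (199), Ifi44 (164), Nlrc5 (53.5), Ifi27l2a (382), Slfn4 (1177) and Slfn5 (71.9), for the granzyme gene Gzma (2.01) and for Dstyk (25.7).

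Replicate 1 of the naïve group was the highest for Igkc (2528), Jchain (1372), Ighv8-8 (12.7), Ern2 (165), Retnlb (102), S100a9 (0.191) and Gmppa (65.4). Replicate 3 of the naïve group was the highest for Myocd (5.55). In the CIA group, replicate 1 was the highest for Hp (11.2), replicate 2 was the highest for Cldn4 (180.1) and the lowest for Igkv4-55 (1.47), and replicate 3 was the highest for Itgav (101) and Mylk (2616) and the lowest for Slc5a8 (92.8).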

How the results depend on the processing

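With 10 libraries the test called 0 genes under every alternative except DESeq2's Wald test, which called 52 higher and 87 lower. The 60-library spread called 39 and 116, and 1012 and 1033 without both replicates numbered 4. Leaving out each library in turn, with either spread, gave 0 to 546 genes higher and 0 to 576 lower. No gene differed at ZT4 from the other times under any alternative, with 0 each time. At an unadjusted p under 0.05 the higher genes numbered 770 among genes of at least 5 CPM, 1876 without both replicates numbered 4, 261 with the smooth muscle covariate, 2325 with 60 libraries less both replicates numbered 4, and 536 to 2091 leaving out each library. The lower genes numbered 1794 with 60 libraries, 1748, 329 and 2624 under the last 3 of those settings, and 667 to 2224 leaving out each library. The cause was not tested.

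Members called lower, in the order 60 libraries, DESeq2's Wald test and 60 libraries without both replicates numbered 4, were 7, 5 and 17 of the cholesterol genes (0 to 16 leaving out each library), 11, 4 and 24 of the interferon-stimulated genes (0 to 24), 4, 2 and 10 of the macrophage genes (0 to 11) and 1, 3 and 6 of the cytotoxic genes (0 to 6). Neuron genes called higher were 1, 1 and 19 (0 to 16), and smooth muscle genes 14 in the last of these fits (0 to 6). At an unadjusted p under 0.05 the covariate left 10 cholesterol (16 to 22 leaving out each library), 4 interferon-stimulated (10 to 36), 3 macrophage (10 to 13), 4 cytotoxic (5 to 10), 0 smooth muscle (2 to 26) and 1 neuron gene (2 to 21). The smooth muscle count under the covariate was largely set by its construction from those genes. Interferon-stimulated genes numbered 19 without both replicates numbered 4, cytotoxic genes 0 at a mean of at least 5 CPM, and smooth muscle genes 10 by limma voom. That cytotoxic count was largely set by the filter. The 13 genes together summed to only 3.5 to 8.8 CPM in CIA and 10.4 to 28.9 CPM in naïve mice. By clock genes, naïve replicate 3 was nearest to ZT4 with ZT4 means lacking replicate 4.

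Deviations from the group mean of same-numbered libraries correlated at 0.13, 0.412, 0.428, -0.315 and 0.078 for numbers 1 to 5. Libraries of different numbers were not correlated, so these values cannot decide whether the numbers mark pairs. The labels name no pairs, and the main test took none. With the replicate block 0 genes were called, 1263 higher and 1230 lower genes had an unadjusted p under 0.05, and 9 neuron genes did. The block gave opposite signs of log2 fold change for Per2 (0.025), Per3 (0.035), Cry1 (-0.12), Dbp (0.80) and Ciart (0.36).

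Of 135 named genes 19 had the opposite sign under some alternative. Without both replicates numbered 4 these were Npas2 (-0.23), Per2 (0.45), Per3 (0.44), Cry1 (-0.66), Dbp (1.52), Ciart (1.30) and Flvcr1 (-0.028), and with 60 libraries the same genes had -0.23, 0.45, 0.44, -0.66, 1.52, 1.29 and -0.028. With the covariate they were Arntl (0.15), Clock (0.10), Cry2 (-0.16), Nr1d1 (-0.32), Nr1d2 (-0.22), Rora (-0.39), Tef (-0.69), Hlf (-0.17), Bhlhe40 (-0.02), Bhlhe41 (-0.52) and Retnlb (0.033). With limma voom they were Per2 (0.076), Dbp (0.48), Ciart (0.32), Bhlhe40 (-0.048) and Retnlb (0.35). Leaving out each library gave Bhlhe40 -0.10 to 0.14, Bhlhe41 -0.18 to 0.57, Ciart -1.81 to 1.15, Clock -0.13 to 0.039, Cry1 -0.44 to 0.21, Cry2 -0.046 to 0.14, Dbp -0.80 to 1.26, Npas2 -0.12 to 0.20, Nr1d2 -0.007 to 0.53, Per1 -0.055 to 0.43, Per2 -0.40 to 0.42, Per3 -0.37 to 0.33, Retnlb -2.42 to 0.43, Rora -0.016 to 0.53 and Tef -0.23 to 0.99.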
